A study of Mus musculus with 9 samples.

Results

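The glucocorticoid system of the mouse brain was followed here through 7 genes chosen by symbol, out of the 31053 genes listed in single-nucleus count matrices of cortex and hippocampus. The 2 receptors were Nr3c1, which encodes the glucocorticoid receptor, and Nr3c2, which encodes the mineralocorticoid receptor. The 5 target genes were Fkbp5, a co-chaperone of the receptor, Sgk1, a serine/threonine kinase, Tsc22d3, which encodes the leucine zipper protein GILZ, Zbtb16, a zinc finger transcription factor, and Errfi1, an inhibitor of EGF receptor family kinases. All 7 were listed, and they were described in each marker-defined class of nuclei and in each of 9 libraries.

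The 9 libraries came from male wild-type C57BL/6 mice in 3 groups of 3, young AAV-EGFP at 5 months of age, aged AAV-EGFP at 19 months and aged AAV-B3GNT3 at 19 months. Every mouse, controls included, had received an adeno-associated virus by retro-orbital injection 8 weeks earlier. The vector carried EGFP in the control groups and, in the treated group, EGFP together with B3GNT3, a glycosyltransferase of mucin-type O-glycan synthesis, in both cases under a short CLDN5 promoter that is active in brain endothelial cells (BECs). No group was left without virus, so all values below are those of injected mice. Each library was labelled as a separate sample of its group, and n = 3 libraries per group holds throughout.

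Corticosterone, the main glucocorticoid of the mouse, enters cells by diffusion and binds both receptors in the cytoplasm, where they are held by a chaperone complex around Hsp90. The mineralocorticoid receptor has the higher affinity and is known for its high expression in the hippocampus, whereas the glucocorticoid receptor is present in nearly all cells and becomes occupied at the hormone peaks of the day and during stress. The bound receptors move to the nucleus, bind palindromic response elements and change transcription within minutes to hours. Fkbp5 closes a feedback loop, because its product lowers the affinity of the receptor for its ligand, and Tsc22d3 carries part of the anti-inflammatory action of the hormone. Sgk1 regulates ion channels and transporters, Zbtb16 is a widely used transcript marker of receptor activation, and Errfi1 dampens growth factor signalling. The labels gave no hormone level and no hour of tissue collection.

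RefSeq promoter windows (GRCm38.p6, from 250 bases before to 50 bases after a transcript start) were at hand for 5 of the 7 genes, 13 windows in all. They were searched on both strands for the palindromic glucocorticoid response element, the arms AGAACA and TGTTCT set 3 bases apart, which was found in 3 of 32851 windows of the genome (0.00913%) and in 1 of the 13. That window preceded an internal start of Sgk1. The 250 bases before this start are shown because they hold the single match among these 13 windows, with the element in capitals, on the plus strand at chr10:21993640-21993889.
Sgk1: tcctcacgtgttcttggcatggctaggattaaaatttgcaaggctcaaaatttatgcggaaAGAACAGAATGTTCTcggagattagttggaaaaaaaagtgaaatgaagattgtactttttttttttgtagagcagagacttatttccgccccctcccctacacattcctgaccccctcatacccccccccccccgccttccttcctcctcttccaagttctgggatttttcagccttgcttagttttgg
The element ran from 189 to 175 bases before the start. The stretch overlapped 0 annotated exons of Sgk1 and lay inside 5 longer transcripts of the gene, so it was intronic for these. The single arm TGTTCT, which also lies within the full element, was present in 4 of the 13 windows, those of Sgk1 and Tsc22d3, and in 6233 of all 32851. The variant with the arms GGAACA and TGTTCC, also 3 bases apart, was in 0 of 32851 windows. These are matches of letters in short windows and show no binding.

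In the GENCODE vM21 annotation of GRCm38, all 7 genes were protein-coding and none overlapped another protein-coding gene. Nr3c1 lay on the minus strand at chr18:39410545-39519421 and Nr3c2 on the plus strand at chr8:76899442-77245012. The target genes lay at chr17:28399094-28517527 for Fkbp5 (minus strand), chr10:21882184-21999903 for Sgk1 (plus), chrX:140539528-140600659 for Tsc22d3 (minus), chr9:48654297-48836222 for Zbtb16 (minus) and chr4:150853919-150868892 for Errfi1 (plus). Nr3c2, Fkbp5 and Errfi1 each overlapped non-coding genes (3, 4 and 1).

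Of 77823 barcodes in the matrices 70217 passed as nuclei, at 47332047 to 79964605 UMIs per library. Any pair of libraries shared 7 to 37 barcodes. Nuclei were clustered without the 7 genes and the wider gene lists used below, and 65693 fell in 10 classes named from marker genes. The 9 classes with enough nuclei in every library were excitatory neurons (20586 nuclei), inhibitory neurons (8181), astrocytes (8383), oligodendrocytes (20354), oligodendrocyte precursors (2696), microglia (1887), BECs (740), pericytes (965) and fibroblasts (1767). Neuron subclasses passed markers of dentate granule and hippocampal pyramidal neurons, as the labelled tissue holds, and a further cluster of 3675 nuclei passed markers of D1 and D2 striatal-type neurons, which the label does not name. B3gnt3 itself had 0, 4 and 3 UMIs in BECs of the aged AAV-B3GNT3 libraries against 0, 0 and 0 in those of aged AAV-EGFP and 8, 3 and 1 in those of young AAV-EGFP, and the sources used here do not say whether the vector's transcript can be read by these tags. The matrices still contain free RNA, that is, transcripts of lysed cells captured with a nucleus. An upper estimate of its share of UMIs, from markers of other classes, had medians over libraries between 10.7% in inhibitory neurons and 46.9% in BECs. Aged AAV-EGFP replicate 1 and, less so, young AAV-EGFP replicate 1 stood apart in the target genes, as described below. Calls among the 7 genes that the ageing and treatment fits gained or lost without aged AAV-EGFP replicate 1 are given.

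The receptors were read in every class, with different orders. Levels are given as UMIs of the gene after scaling the total of its class to 1000000 UMIs (CPM), as mean ± SD over the 9 libraries, and neighbours in the order of means were compared by a two-sided exact paired sign-flip permutation test, adjusted over the 8 neighbour pairs of a gene. The smallest p that this test allows is 0.00391. Nr3c1 was highest in microglia (260.3 ± 26.7 CPM) and BECs (256.3 ± 41.3), which were not told apart (adjusted p = 0.804), and then in oligodendrocytes (199.3 ± 30.4), which lay below BECs in 8 of 9 libraries (exact test, adjusted p = 0.0312). Fibroblasts, astrocytes, oligodendrocyte precursors and pericytes followed at 191.9 to 146.0 CPM with no pair of neighbours called. Excitatory neurons were at 124.5 ± 23.9 CPM and inhibitory neurons at 76.1 ± 16.6, lower in 9 of 9 libraries (exact test, adjusted p = 0.0312). The glucocorticoid receptor transcript thus spanned 3.42-fold between its highest and lowest class.

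Nr3c2 was highest in fibroblasts at 1047 ± 361 CPM, with a range of 612 to 1750. Astrocytes followed at 543.0 ± 84.9 CPM and inhibitory neurons at 408.3 ± 34.2, and each step was seen in 9 of 9 libraries (exact test, adjusted p = 0.0104 for both). Pericytes, BECs, excitatory neurons and microglia lay between 401.9 and 358.4 CPM and were not told apart. Oligodendrocyte precursors (256.5 ± 44.3 CPM) were below microglia in 9 of 9 libraries (exact test, adjusted p = 0.0104) and were not told apart from oligodendrocytes (244.4 ± 21.7, adjusted p = 0.731). In oligodendrocytes the upper estimate of free RNA reached a median of 65.8% of the Nr3c2 counts, and in BECs 55.8%, while in astrocytes and fibroblasts it was 18.1% and 12.8%. Fibroblasts led in Nr3c2 also after free RNA was subtracted (1318 CPM) and with finer clusters (1823 CPM), where the class kept 552 of its 1767 nuclei.

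**Figure D1:**
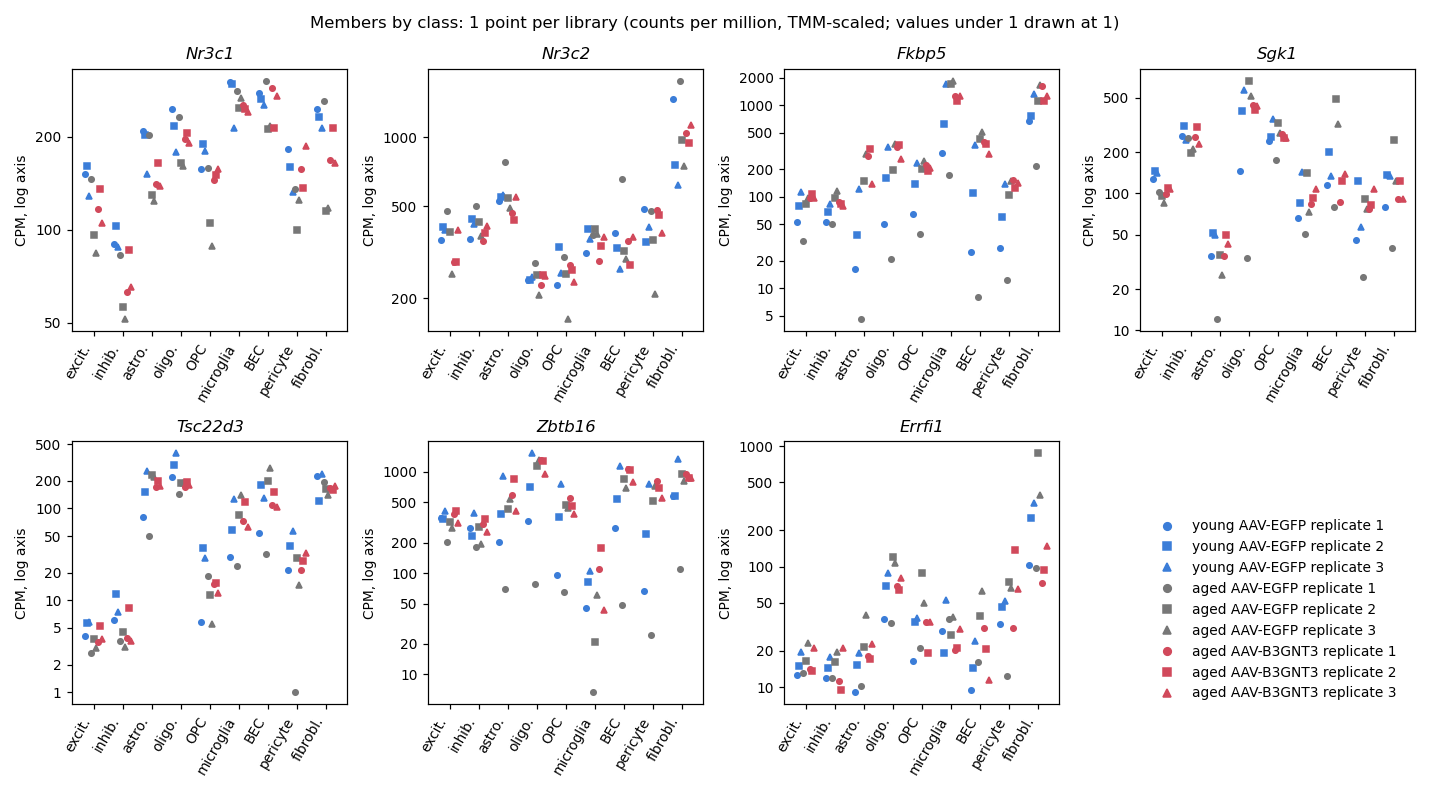
Level of each of the 7 genes in the 9 tested classes, with 1 point per library, coloured by group and shaped by replicate (vertical axis: CPM on TMM-scaled totals, log scale; a count of 0 is drawn at 1). Nr3c2 led in fibroblasts and astrocytes, Fkbp5 in microglia and fibroblasts, and the grey circle, aged AAV-EGFP replicate 1, lay lowest for Fkbp5 and Zbtb16 in 9 of 9 classes.

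Each target gene had its highest class mean in a glial or vascular class, though for Sgk1 no step from oligodendrocytes down to inhibitory neurons was called. Fkbp5 was highest in microglia (1120 ± 634 CPM) and fibroblasts (1089 ± 483), which were not told apart (adjusted p = 0.857), and was lower in BECs (276.6 ± 179.5) in 9 of 9 libraries (exact test, adjusted p = 0.0312). From BECs down to inhibitory neurons (80.2 ± 22.8 CPM) no neighbours of Fkbp5 were told apart, and the libraries ranged from 7.98 to 489 CPM in BECs. Sgk1 led in oligodendrocytes (402.2 ± 193.1 CPM), oligodendrocyte precursors (267.4 ± 47.2) and inhibitory neurons (254.1 ± 41.8), and 1 of its 8 steps was called, that from pericytes (76.5 ± 30.8) to astrocytes (37.4 ± 12.9; exact test, adjusted p = 0.0312). The estimate of free RNA reached or exceeded all Sgk1 counts of astrocytes in 8 of 9 libraries, so that Sgk1 there was not separable from background, and the step was no longer called after subtraction.

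Tsc22d3 had the widest span over classes, 52.3-fold. It lay at 218.5 ± 73.5 CPM in oligodendrocytes, 175.0 ± 35.9 in fibroblasts and 170.3 ± 67.1 in astrocytes, with no step between them called, and at 135.8 ± 71.7 in BECs and 79.6 ± 42.0 in microglia. Neurons were at the bottom, with 5.77 ± 2.77 CPM in inhibitory and 4.18 ± 1.09 CPM in excitatory nuclei, and 4 of its 8 steps were called, at adjusted p = 0.0156 to 0.0234 by the exact test. After free RNA was subtracted 2 of the 8 were called. The free RNA estimate exceeded 100% of the Tsc22d3 counts of excitatory neurons in 8 of 9 libraries, so that its counts in these neurons were not separable from background. The highest neuronal value was 11.2 CPM and the lowest oligodendrocyte value 140.0, so that these classes did not overlap. Not all glia were high, since oligodendrocyte precursors lay between 5.8 and 36.1 CPM, with a median free RNA estimate of 96.3% of their Tsc22d3 counts.

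Zbtb16 was highest in oligodendrocytes (961.4 ± 495.1 CPM), fibroblasts (785.5 ± 339.5) and BECs (719.2 ± 377.1), and lowest in microglia (72.7 ± 53.3), which lay below inhibitory neurons (273.9 ± 72.0) in 9 of 9 libraries (exact test, adjusted p = 0.0156). In microglia the free RNA estimate for Zbtb16 was 130 to 1260% of its counts, over 100% in 9 of 9 libraries. Errfi1 stood out in fibroblasts at 260.3 ± 246.5 CPM, above oligodendrocytes (74.2 ± 27.7) in 9 of 9 libraries (exact test, adjusted p = 0.0156), and it was lowest in excitatory (16.6 ± 4.34) and inhibitory neurons (14.9 ± 4.27). After free RNA was subtracted the step from fibroblasts to oligodendrocytes was not called (adjusted p = 0.0625 by the exact test), nor was any other Errfi1 step. The fibroblast value of Errfi1 also depended on the clustering. Under finer clusters the class kept 552 nuclei with 62.3 CPM of Errfi1, below the 74.2 of oligodendrocytes, and no Errfi1 step was called. Fibroblasts then led in Fkbp5, Tsc22d3 and Zbtb16 instead, at 1627, 432.5 and 1031 CPM. In all, 17 of 56 steps between neighbouring classes were called over the 7 genes.

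Among the named excitatory subclasses the receptors had opposite patterns. Nr3c2 was read at 1062 ± 275 CPM in dentate granule neurons (701 to 1410 over the libraries) and at 1055 ± 217 in hippocampal pyramidal neurons (571 to 1320), against 194.8 ± 33.1 in a cluster that passed the markers Cux1, Cux2 and Rasgrf2, with Rorb as its leading gene, and 150.6 ± 19.8 in layer 6 corticothalamic neurons. The lowest of the 9 hippocampal values, for both kinds of neuron, lay above the highest value of the Cux1, Cux2 and Rasgrf2 cluster and of the layer 6 and near-projecting neurons, which was 320 CPM in near-projecting neurons. The class mean of excitatory neurons (359.2 CPM) therefore joined nuclei with very different levels of the mineralocorticoid receptor. Interneurons of the Lamp5 and Vip cluster were at 654.3 ± 72.9 CPM and those of the Pvalb and Sst cluster at 263.0 ± 14.8, and these also did not overlap (538 to 762 against 227 to 276). Nr3c1 was highest in layer 6 corticothalamic neurons (163.5 ± 38.6 CPM) and the Cux1, Cux2 and Rasgrf2 cluster (139.3 ± 28.8) and lower in dentate granule (81.4 ± 19.2) and hippocampal pyramidal neurons (78.5 ± 19.3), and the ranges of layer 6 (102 to 204) and dentate granule neurons (49.1 to 110) overlapped. In the inhibitory clusters Nr3c1 was at 82.3 ± 18.7 CPM (striatal-type), 73.4 ± 19.6 (Lamp5 and Vip) and 70.1 ± 13.9 (Pvalb and Sst), without such a reversal.

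The targets also split neurons. Fkbp5 was highest in dentate granule neurons (187.8 ± 55.8 CPM) and 62.5 ± 22.7 in the Cux1, Cux2 and Rasgrf2 cluster. Sgk1 was highest in the D1 and D2 striatal-type cluster (353.7 ± 62.4 CPM) and lowest in dentate granule neurons (56.43 ± 12.96), without overlap (257 to 470 against 33.2 to 80.4). Zbtb16 was highest in the Lamp5 and Vip cluster (806.2 ± 182.3 CPM) and lowest in the striatal-type cluster (16.7 ± 12.4), again without overlap. Tsc22d3 stayed under 7 CPM on average in all 8 neuron subclasses. Over whole classes its free RNA estimate was over 100% in 8 of 9 libraries in excitatory neurons, and in inhibitory neurons it had a median of 74.2% and was over 100% in 1 of 9. These subclass levels are descriptions, and no test was run between subclasses. Excitatory clusters of 4427 and 2936 nuclei passed under 3 subclass markers, stayed unnamed and are not among the 8 subclasses. The latter came closest to hippocampal pyramidal neurons, by Wfs1 and Nectin3.

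**Figure D2:**
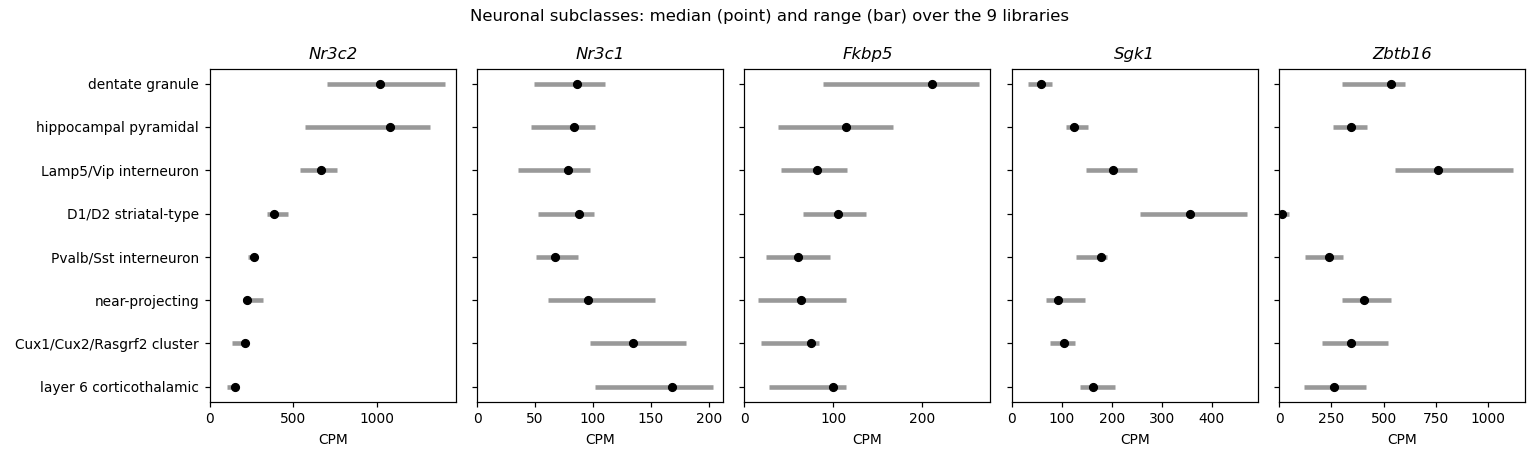
Median (point) and range over the 9 libraries (bar) of 5 of the genes in 8 neuron subclasses, named from the markers they passed (horizontal axes: CPM on a linear scale that differs between panels). Both named hippocampal subclasses held Nr3c2 above the near-projecting, layer 6 and Cux1/Cux2/Rasgrf2 clusters, and the striatal-type cluster was lowest in Zbtb16 and highest in Sgk1. Excitatory clusters left unnamed are not among the 8.

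Fkbp5, Zbtb16 and, in oligodendrocytes, Sgk1 ranged widely between libraries of a group. In oligodendrocytes Fkbp5 was at 50.8, 160 and 353 CPM in young AAV-EGFP replicates 1 to 3, at 20.6, 198 and 376 in aged AAV-EGFP and at 351, 366 and 257 in aged AAV-B3GNT3. Aged AAV-EGFP replicate 1 was the lowest library and young AAV-EGFP replicate 1 the next. Zbtb16 in the same nuclei was at 329, 706 and 1520 CPM in young AAV-EGFP, at 79.0, 1140 and 1310 in aged AAV-EGFP and at 1320, 1280 and 947 in aged AAV-B3GNT3. Sgk1 was at 146, 401 and 572 CPM, at 33.6, 670 and 516, and at 447, 409 and 433 in the same order. The same libraries were low for all 3 genes, and the spread within the young and the aged AAV-EGFP group exceeded the difference between their means.

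Over all classes, aged AAV-EGFP replicate 1 had the lowest Fkbp5 and the lowest Zbtb16 of the 9 libraries in 9 of 9 classes, the lowest Sgk1 in 7, the lowest Tsc22d3 in 6 and the lowest Errfi1 in 2, together 33 of 45 gene-and-class results. Over all 94830 gene-and-class results tested, this library was the lowest in 12.5%, and by class in 9.17% in oligodendrocytes to 23.1% in pericytes. For Fkbp5 the median of the other 8 libraries was between 1.67 times its value in inhibitory neurons and 46.1 times in BECs, and for Zbtb16 between 1.56 times in inhibitory neurons and 25.1 times in pericytes. The BEC and pericyte ratios rest on 1 UMI of Fkbp5 and 2 UMIs of Zbtb16 in aged AAV-EGFP replicate 1. Young AAV-EGFP replicate 1 was the next lowest for Fkbp5 in 9 classes and for Zbtb16 in 6. The receptors did not share this pattern, since aged AAV-EGFP replicate 1 was the lowest in 0 of 18 receptor results and the highest in 8. The aged AAV-B3GNT3 libraries held the lowest target value in 2 of 45 results in all. Classes of 1 library share its free RNA, so they are not separate observations. The counts include Zbtb16 in microglia, Sgk1 in astrocytes and Tsc22d3 in excitatory neurons. There the free RNA estimate exceeded the counts in 9, 8 and 8 of 9 libraries.

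The depth of aged AAV-EGFP replicate 1, over all classes together, was within the range of the other libraries, with 67769024 UMIs and a median of 4653 UMIs per nucleus. Its class totals were the lowest of the 9 libraries in astrocytes (1806706 UMIs), fibroblasts (227327), BECs (125267) and pericytes (84209). Its free RNA estimate in oligodendrocytes was 39.0%, against 34.0 to 66.2% over the libraries. Of a wider list of 28 glucocorticoid-inducible genes (among them Per1, Dusp1, Klf9, Ddit4, Mt1, Mt2 and Pdk4), 26 were tested in at least 1 class, and 82 of 146 results (56.2%) had their lowest value in that library, including 19 of 24 in astrocytes and 16 of 22 in oligodendrocytes. Of 89 results of 11 clock and clock-output genes 22.5% were lowest there, and of 44 results of 8 immediate-early genes, which mark recent neuronal activity, 22.7%. The summed level of the inducible list in astrocytes was 979.9 CPM in that library and 1435 in young AAV-EGFP replicate 1, against 1607 to 2717 in the other libraries. What sets these libraries apart was not tested.

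**Figure D3:**
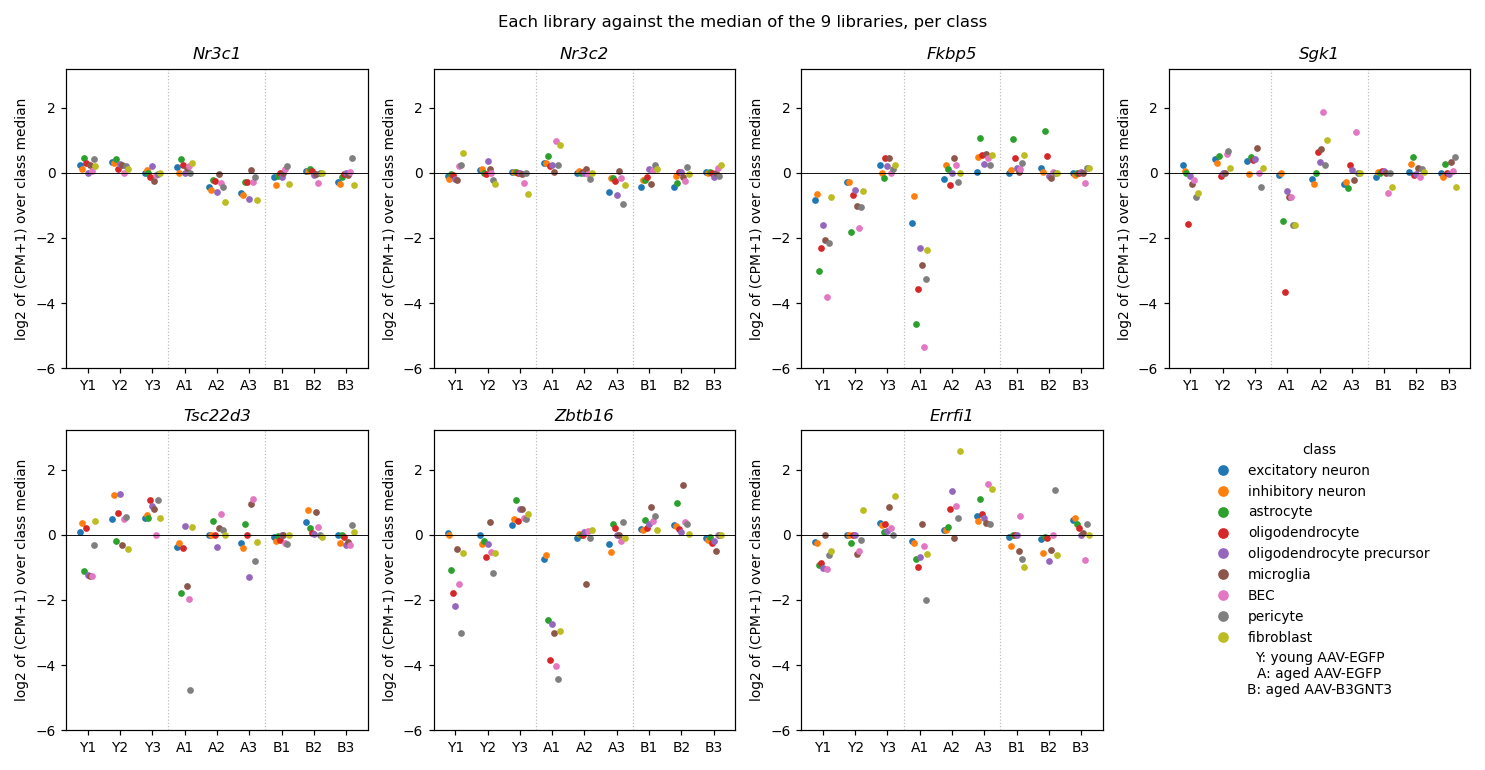
Each library's value of each gene relative to the median of the 9 libraries in the same class (vertical axis: log2 of CPM + 1 over the class median), with libraries along the horizontal axis and 1 coloured point per class. Points of aged AAV-EGFP replicate 1 (A1) were the lowest for Fkbp5 and Zbtb16 in 9 of 9 classes, young AAV-EGFP replicate 1 (Y1) was next lowest in 9 for Fkbp5 and 6 for Zbtb16, A1 was the highest in 8 of 18 receptor results, and the lowest Tsc22d3 point is a count of 0 in pericytes.

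Relations between target genes across the 9 libraries were computed for the 10 pairs in oligodendrocytes, astrocytes and excitatory neurons, 30 in all, on log2(CPM + 1). By Pearson's r, 13 passed an adjusted permutation p of 0.05 and by Spearman's rho 1. In oligodendrocytes Sgk1 and Errfi1 had r = 0.884 (exact permutation p = 0.000146, adjusted 0.00372) and rho = 0.95 (exact p = 0.000353, adjusted 0.0106), and r = 0.886 without the 2 libraries farthest from the median. Fkbp5 and Zbtb16 had r = 0.977 (exact permutation p = 0.000248, adjusted 0.00372) and rho = 0.85 (exact p = 0.00607, adjusted 0.091), and r = 0.86 without those 2 libraries. Fkbp5 and Sgk1 had r = 0.927 (exact permutation p = 0.00731, adjusted 0.0248) and rho = 0.617 (exact p = 0.0857, adjusted 0.223), but r = -0.00707 without young AAV-EGFP replicate 1 and aged AAV-EGFP replicate 1, on which that relation rests. Of the 13, 10 fell under 0.6 in r without the 2 farthest libraries. Pairs of genes in 1 class share libraries, depth and free RNA.

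Ageing was examined as aged AAV-EGFP against young AAV-EGFP with edgeR's quasi-likelihood test on counts summed per library and class, with Benjamini-Hochberg adjustment over all genes tested in a class and a threshold of 0.05. Per the paper, its aged mice came from a National Institute on Aging colony and its young mice from Jackson Laboratories. Age and source of the mice therefore cannot be told apart in this comparison, and changes with age below are changes between these groups. Of 61 gene-and-class results of the 7 genes, 2 were called, both lower with age, and 15 had an unadjusted p under 0.05. Over all genes and classes 8.85% of results were called, so that the share among the 7 genes was not above the background. By class the share of all genes called was 20.8% in oligodendrocytes, 14.2% in excitatory neurons, 12.1% in astrocytes, 11.6% in microglia, 4.45% in inhibitory neurons, 1.15% in pericytes, 1.01% in fibroblasts, 0.590% in oligodendrocyte precursors and 0.0808% in BECs. Of all genes tested, an unadjusted p under 0.05 was found for 643 of 4951 in BECs up to 4864 of 13250 in oligodendrocytes. Errfi1 in BECs and Tsc22d3 in pericytes were too low to be tested.

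Sgk1 fell with age in excitatory neurons. It was at 128, 145 and 140 CPM in young AAV-EGFP, at 102, 95.4 and 85.1 in aged AAV-EGFP and at 99.2, 109 and 108 in aged AAV-B3GNT3, so that all aged libraries lay below all young ones. The change was -0.55 on the log2 scale (SE 0.0958, adjusted p = 0.00792 by edgeR), and it was called in all 9 fits that left out a library, from -0.61 to -0.48, and in all 10 other alternatives. The class sum joins subclasses with different Sgk1 levels, from 56.4 CPM in dentate granule to 170.2 in layer 6 corticothalamic neurons. Change within a subclass, and the part of their mix, was not tested. In the other classes Sgk1 had log2 changes of -0.88 in astrocytes (adjusted p = 0.0510), -0.31 in inhibitory neurons (0.183), 0.13 in oligodendrocytes (SE 0.678, adjusted p = 0.906) and 1.01 in BECs (adjusted p = 0.347), none past the threshold. With 1 library left out the astrocyte value lay between -1.23 and -0.56, called in 2 of 9 fits. The free RNA estimate had a median of 124% of the Sgk1 counts of astrocytes and was over 100% in 8 of 9 libraries. The BEC value lay between 0.52 and 1.41, called in 1 of 9, without aged AAV-EGFP replicate 1. The difference between excitatory neurons and oligodendrocytes in the ageing change of Sgk1 was -0.26 (SE 0.880, adjusted p = 0.889), so that a difference between the classes was not shown. Leaving out 1 library moved that difference between -1.36, without aged AAV-EGFP replicate 1, where it was called (adjusted p = 0.0230), and 0.50, without aged AAV-EGFP replicate 2 (adjusted p = 0.810). It was also positive without aged AAV-EGFP replicate 3 (0.38) and without young AAV-EGFP replicate 1 (0.15).

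Tsc22d3 fell with age in oligodendrocytes, from 219, 299 and 396 CPM in young AAV-EGFP to 142, 187 and 190 in aged AAV-EGFP, without overlap, while the aged AAV-B3GNT3 libraries were at 169, 195 and 179. The log2 change was -0.81 (SE 0.189, adjusted p = 0.0107 by edgeR), and it was called in all 9 fits without 1 library. After subtraction of free RNA it was -1.07 with an adjusted p of 0.0794. The estimate of free RNA was at most 11.8% of the Tsc22d3 counts in this class. Tsc22d3 was also lower in all aged than in all young AAV-EGFP libraries in excitatory (log2 change -0.70, adjusted p = 0.0545) and inhibitory neurons (-1.20, adjusted p = 0.0586), with the free RNA estimates given above. Of the 8 classes tested, 5 had negative and 3 positive changes of Tsc22d3, the highest in BECs (0.58, adjusted p = 0.688 by edgeR).

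Nr3c1 had negative log2 changes with age in 9 of 9 classes, none past the threshold, with a median of -0.42 over the classes. The medians of all genes lay between -0.0162 and 0.0270. In inhibitory neurons it was at 90.2, 103 and 88.1 CPM in young AAV-EGFP, at 82.6, 56.4 and 51.3 in aged AAV-EGFP and at 63.1, 86.3 and 65.2 in aged AAV-B3GNT3, so that the aged AAV-EGFP libraries lay below the young ones (log2 change -0.57, SE 0.171, adjusted p = 0.0705 by edgeR). Aged AAV-EGFP replicate 1 was the highest of its group for Nr3c1 in 9 of 9 classes. Without that library Nr3c1 was called lower in 6 classes, at log2 changes of -1.02 in fibroblasts, -0.85 in oligodendrocyte precursors, -0.81 in inhibitory neurons, -0.71 in excitatory neurons, -0.54 in astrocytes and -0.39 in oligodendrocytes (edgeR adjusted p = 0.00565 to 0.0494). Without young AAV-EGFP replicate 1 as well, 4 of these calls stood, and those in astrocytes (-0.48, adjusted p = 0.0616) and oligodendrocytes (-0.30, adjusted p = 0.113) were lost, with a positive value in microglia (0.076). Without aged AAV-EGFP replicate 3 none of the 9 was called, and the values shrank to -0.35 in fibroblasts, -0.28 in excitatory neurons, -0.14 in astrocytes and -0.11 in oligodendrocytes, with 0.029 in microglia (edgeR adjusted p from 0.229 upwards over the 9). Nr3c2 had positive changes in 6 classes and negative ones in 3, between -0.31 and 0.37, with adjusted p from 0.593 upwards.

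Fkbp5 had positive log2 changes with age in 8 of 9 classes and none was called. In astrocytes it was at 16.1, 38.3 and 122 CPM in young AAV-EGFP, at 4.57, 148 and 291 in aged AAV-EGFP and at 280, 336 and 137 in aged AAV-B3GNT3, with a log2 change of 1.41 (SE 0.790, adjusted p = 0.258 by edgeR). The groups overlapped through the low aged library. Without it the change in astrocytes was 1.99 (adjusted p = 0.0181 by edgeR) and that in microglia 1.12 (adjusted p = 0.0119). Without both low libraries it was 1.49 in astrocytes (adjusted p = 0.0323 by edgeR) and 0.67 in microglia (adjusted p = 0.0671). Other omissions lowered it, to 0.51 in astrocytes and 0.22 in microglia without aged AAV-EGFP replicate 3 and to 0.93 and 0.13 without young AAV-EGFP replicate 1 (edgeR adjusted p = 0.515 to 0.912), and with 1 library left out it reached 2.47 and 1.48 without young AAV-EGFP replicate 3, not called. Zbtb16 had negative changes in 8 of 9 classes and Errfi1 positive ones in 8 of 8, and none was called. Without aged AAV-EGFP replicate 1 Zbtb16 was positive in 5 classes and negative in 4 (-0.71 to 0.86), whereas Fkbp5 was positive in 9 of 9 and Errfi1 in 8 of 8, and 13 uncalled ageing results of the 7 genes changed sign. In that fit Errfi1 was called higher in fibroblasts (1.39, edgeR adjusted p = 0.0299), oligodendrocyte precursors (1.21, 0.0247), astrocytes (1.17, 0.0150) and oligodendrocytes (0.85, 0.0220). Fkbp5 was called higher also in inhibitory neurons (0.66, 0.0267), and Sgk1 in BECs (1.41, 0.0121). Each of these was called in 1 of the 9 fits without 1 library. Aged AAV-EGFP replicate 1 was the lowest of its group in each, as for Fkbp5 in astrocytes and microglia. It had been set apart because target genes were low in it. Leaving it out therefore raises these aged means by construction, and such calls are no separate evidence of a change with age. Leaving out aged AAV-EGFP replicate 1 raised the calls among the 7 genes from 2 to 16 of 62, 8 higher and 8 lower, while the share of all genes called in that fit was 15%. Without both low libraries the calls were 12, beside 12.6% of all genes.

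**Figure D4:**
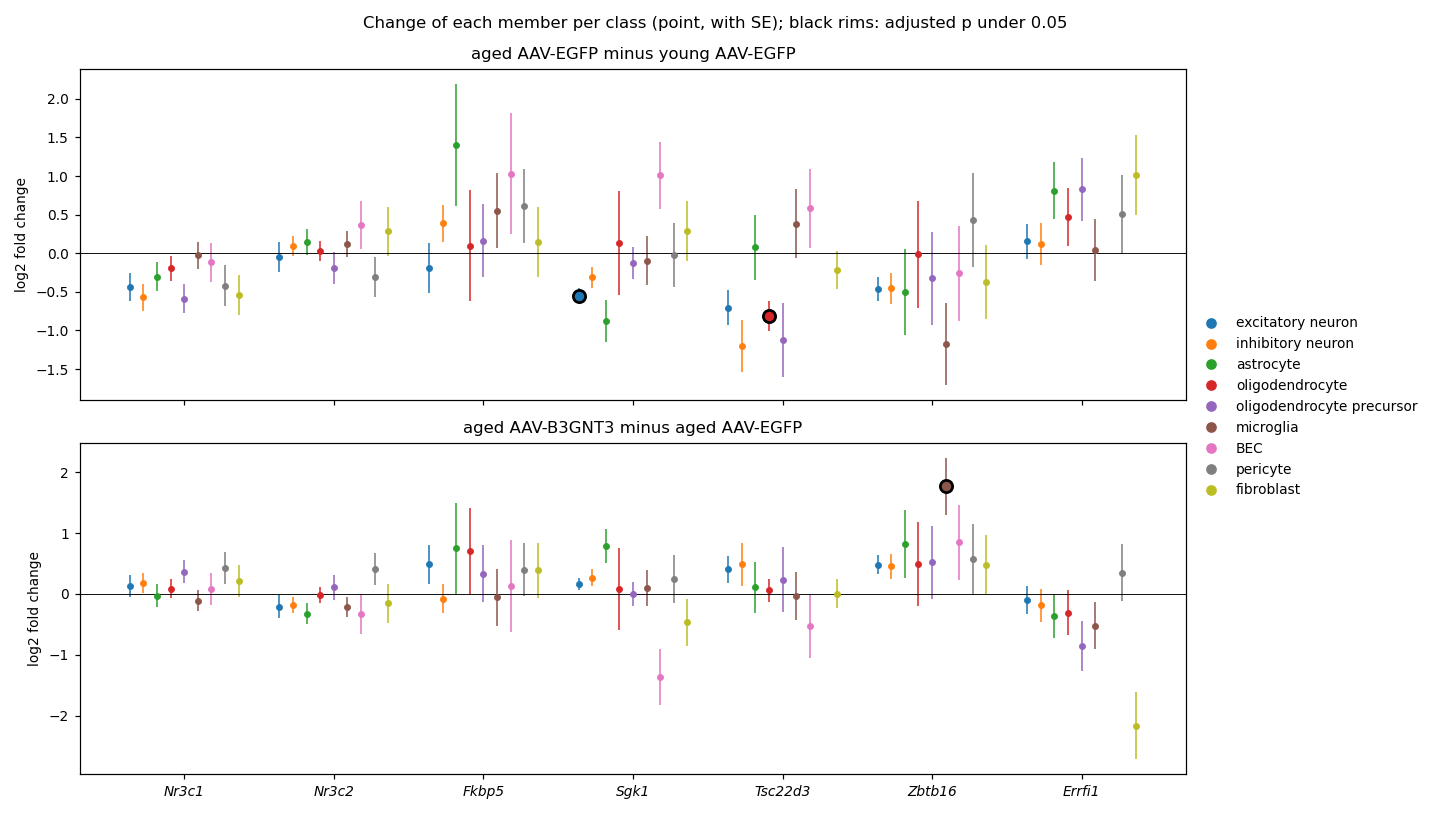
Log2 fold change of each gene in each tested class (point) with its SE (bar) for ageing (upper panel) and for AAV-B3GNT3 in aged mice (lower panel), with black rims where the adjusted p was under 0.05. The calls are Sgk1 in excitatory neurons and Tsc22d3 in oligodendrocytes with ageing and Zbtb16 in microglia with AAV-B3GNT3, and the points of Nr3c1 with ageing lie under 0 in 9 classes.

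Whether classes differed in their change was tested between excitatory neurons and oligodendrocytes and between astrocytes and oligodendrocytes, with the library as a block. Of 28 results for the 7 genes, 1 was called. Among all genes the share called for ageing was 11.9% in the former pair and 5.80% in the latter, and for AAV-B3GNT3 4.76% and 2.12%. The ageing change of Fkbp5 was higher in astrocytes than in oligodendrocytes by 1.19 on the log2 scale (SE 0.274, adjusted p = 0.0200 by edgeR). The change was 1.41 in astrocytes and 0.09 in oligodendrocytes, neither of them called in its own class. The call was lost without aged AAV-EGFP replicate 2 (1.16, adjusted p = 0.0831), without aged AAV-EGFP replicate 3 (1.05, 0.122) and without young AAV-EGFP replicate 2 (0.997, 0.136).

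Delivery of B3GNT3 to the aged endothelium was examined as aged AAV-B3GNT3 against aged AAV-EGFP in the same fits. Of 61 results of the 7 genes 1 was called, against 2.74% of all gene-and-class results. The shares called by class were 8.38% in oligodendrocytes, 4.95% in astrocytes, 4.37% in microglia, 2.42% in excitatory neurons, 0.639% in inhibitory neurons, 0.222% in BECs, 0.195% in pericytes, 0.141% in fibroblasts and 0.114% in oligodendrocyte precursors. An unadjusted p under 0.05 was found for 6 of the 61. Of all genes tested it was found for 525 of 4951 in BECs up to 3574 of 13250 in oligodendrocytes. In BECs, the cells that the promoter addresses, none of the 6 genes tested was called. The aged AAV-EGFP libraries serve both comparisons, so that the ageing and treatment values of a gene are not independent.

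Zbtb16 was called higher in microglia of the treated mice. It was at 45.2, 80.9 and 106 CPM in young AAV-EGFP, at 6.68, 21.1 and 61.5 in aged AAV-EGFP and at 111, 178 and 43.0 in aged AAV-B3GNT3, so that the aged groups overlapped. The log2 change was 1.77 (SE 0.467, adjusted p = 0.0290 by edgeR). Beside this stands the free RNA estimate, which was above all Zbtb16 counts of microglia in 9 of 9 libraries, and after its subtraction the gene could not be tested there. The call was lost without aged AAV-EGFP replicate 1 (1.33, adjusted p = 0.0549), without aged AAV-EGFP replicate 2 (1.53, 0.128), without aged AAV-B3GNT3 replicate 2 (1.24, 0.281), with only the groups compared (1.78, 0.0596) and with DESeq2 (1.86, 0.305).

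Over the 9 classes Zbtb16 had positive log2 changes with AAV-B3GNT3 in all 9, with a median of 0.52. In oligodendrocytes the change was 0.49 (SE 0.690, adjusted p = 0.690). Fkbp5 had positive changes in 7 classes, with a median of 0.39, and no call. Without aged AAV-EGFP replicate 1 Zbtb16 was positive in 8 of 9 classes at a median of 0.32, and Fkbp5 in 4 of 9 at a median of -0.054. In that fit, 14 of the uncalled treatment results of the 7 genes had the opposite sign.

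Among results that did not pass the threshold, the largest fitted changes with AAV-B3GNT3 were negative. Errfi1 in fibroblasts was at 103, 252 and 337 CPM in young AAV-EGFP, at 97.3, 869 and 392 in aged AAV-EGFP and at 73.0, 94.3 and 147 in aged AAV-B3GNT3 (log2 change -2.16, SE 0.550, adjusted p = 0.142 by edgeR). Sgk1 in BECs was at 116, 201 and 134 CPM, at 80, 489 and 321, and at 87.2, 123 and 138 in the same order (-1.37, SE 0.458, adjusted p = 0.245). The free RNA estimate had a median of 58.1% of the Sgk1 counts of BECs and reached 90.9%, and after its subtraction the change was -2.98 (adjusted p = 0.218). For both genes, the high values were those of aged AAV-EGFP replicates 2 and 3, so that leaving out replicate 1 of that group lowers both changes by construction. Without aged AAV-EGFP replicate 1 these were the 2 calls of 62, Errfi1 at -2.58 (adjusted p = 0.00262 by edgeR) and Sgk1 at -1.78 (adjusted p = 0.00602), and Zbtb16 in microglia was not called, with 5% of all genes called in that fit. The Errfi1 change was smaller and uncalled without aged AAV-EGFP replicate 2 (-1.31, adjusted p = 0.429), with finer clusters (-0.94, 0.748) and with no upper limit on genes per nucleus (-0.86, 0.793), and the Sgk1 change was -0.89 (0.565) without aged AAV-EGFP replicate 2. Nr3c1 and Nr3c2 had changes between -0.34 and 0.43 with adjusted p from 0.278 upwards, at medians of 0.13 and -0.18. Without aged AAV-EGFP replicate 1 Nr3c1 was positive in 8 of 9 classes at a median of 0.40, and Nr3c2 in 6 of 9 at a median of 0.097, none called. In oligodendrocyte precursors the Nr3c1 change was called in 1 of the 10 other alternatives.

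**Figure D5:**
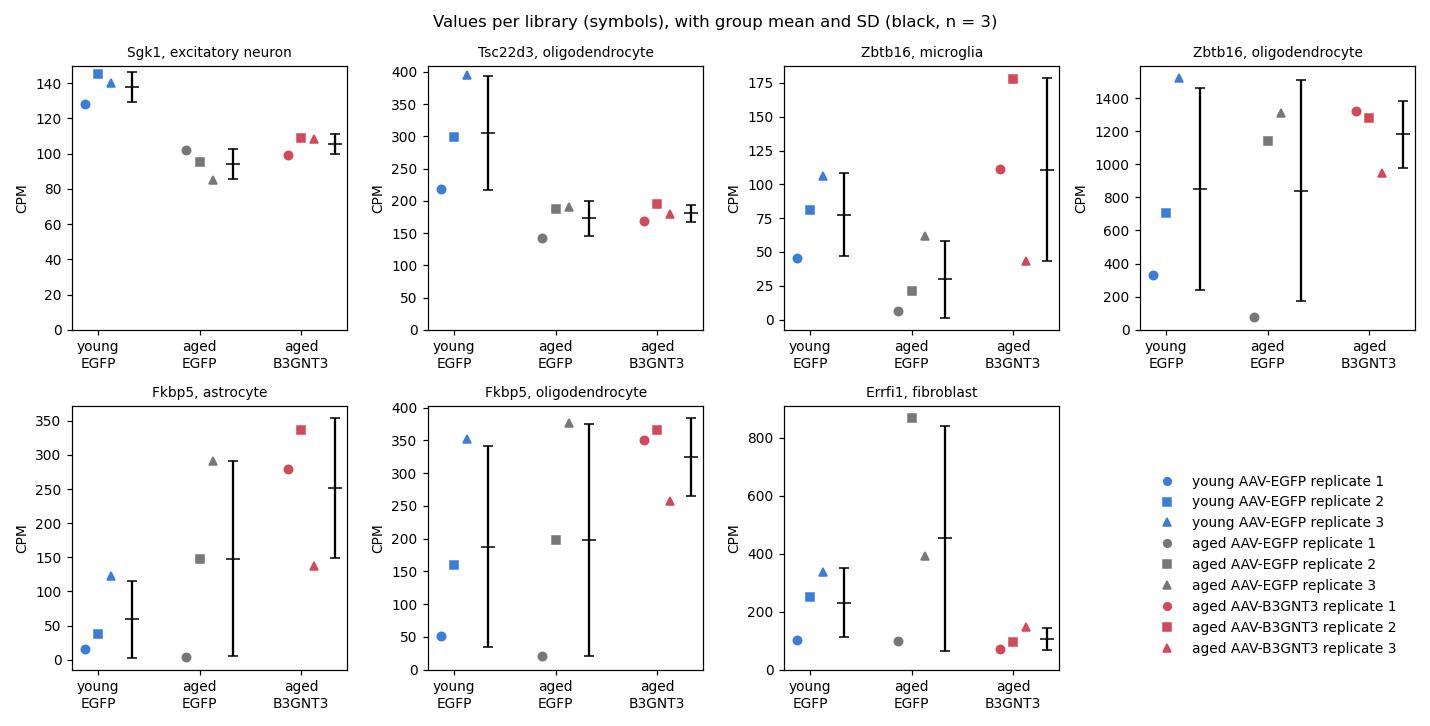
CPM per library (symbols, by group and replicate) with the group mean and SD (black, n = 3) for the called results and for 4 further results named in the text (vertical axes: CPM, linear scale). The aged libraries lay below the young ones for Sgk1 in excitatory neurons, and aged AAV-EGFP replicate 1 lay far below the rest of its group for Zbtb16 and Fkbp5 in oligodendrocytes.

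Genes that act with the receptors were read from gene lists. Of 8 chaperones of the receptor complex (Hsp90aa1, Hsp90ab1, Fkbp4, Ptges3, Stip1, Hspa8, Dnajb1 and Bag1), 7 of 58 results were called lower with age and 0 higher, at a median log2 change of -0.0636. Stip1, which links Hsp70 and Hsp90, fell in oligodendrocytes (-0.94, edgeR adjusted p = 0.00537), excitatory neurons (-0.68, 0.00691) and inhibitory neurons (-0.78, 0.0184). In oligodendrocytes Fkbp4, which binds Hsp90 as Fkbp5 does, fell by 0.92 on the log2 scale (adjusted p = 0.0165), and Dnajb1, an Hsp70 co-chaperone, was at 5.41, 7.46 and 9.91 CPM in the young AAV-EGFP libraries against 2.09, 3.81 and 2.75 in those of aged AAV-EGFP (-1.35, adjusted p = 0.0145). With AAV-B3GNT3 4 of 58 were called lower, Hspa8 and Hsp90ab1 in astrocytes (-0.99 and -0.80) and in oligodendrocytes (-0.90 and -0.75), at edgeR adjusted p = 0.0171 to 0.0341. Hspa8 in astrocytes was at 46.2, 98.0 and 65.7 CPM in aged AAV-EGFP and 33.5, 41.2 and 30.4 in aged AAV-B3GNT3. The calls with AAV-B3GNT3 were 6.9% of the chaperone results, against 2.74% of all results.

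Of 63 results of 7 coregulators (Ncoa1, Ncoa2, Ncoa3, Ncor1, Nrip1, Crebbp and Ep300), 8 were called lower with age and 0 higher, at a median log2 change of -0.261. In excitatory neurons Ncoa3, a coactivator, Ep300 and Crebbp, which are histone acetyltransferases, and Nrip1, a corepressor, were called, between -0.48 and -0.33. In oligodendrocytes Nrip1 fell by 0.71 on the log2 scale (edgeR adjusted p = 0.00583), with Crebbp at -0.56 and Ep300 at -0.41 also called. With AAV-B3GNT3 0 of the 63 were called by edgeR and 4 had an unadjusted p under 0.05, beside the unadjusted counts of all genes given above. The ageing shares of 12.1% for the chaperones and 12.7% for the coregulators stand beside 8.85% of all results.

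Of 6 genes of corticosteroid metabolism and export, 5 were tested, in 18 results. Abcb1b, an efflux transporter, was called higher with age in excitatory neurons (0.93, edgeR adjusted p = 0.00587), and with AAV-B3GNT3 none of the 18 was called. Of 146 results of the other inducible genes, 2 were called higher with age (Mt1 in astrocytes and Rhob in oligodendrocytes) and 2 lower (Fam107a and Gpd1 in excitatory neurons). With AAV-B3GNT3 3 were higher and 3 lower. Plin4, a lipid droplet protein, was at 1.71, 1.47 and 4.63 CPM in astrocytes of aged AAV-EGFP and at 11.8, 27.6 and 5.92 in aged AAV-B3GNT3 (log2 change 2.51, edgeR adjusted p = 0.0232). Rhob, a small GTPase, was at 70.4, 104 and 73.6 CPM in oligodendrocytes of aged AAV-EGFP and at 37.1, 41.0 and 45.1 in aged AAV-B3GNT3 (-1.01, adjusted p = 0.00855). Klf15, a transcription factor of metabolic genes, was at 3.04, 3.03 and 4.92 CPM in excitatory neurons of aged AAV-EGFP and at 8.21, 7.58 and 6.12 in aged AAV-B3GNT3 (0.99, adjusted p = 0.0450). The calls were 2.74% of the list's results with age, against 8.85% of all results, and 4.11% with AAV-B3GNT3, against 2.74% of all.

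Immediate-early and clock genes were counted beside these, because both respond to the hour and the state in which tissue is taken. With age 2 of 44 immediate-early results were called higher and 4 lower, and with AAV-B3GNT3 0 higher and 2 lower. Egr1 in pericytes was at 69.8, 60.1 and 42.4 CPM in young AAV-EGFP, 86.1, 478 and 121 in aged AAV-EGFP and 33.8, 36.5 and 42.1 in aged AAV-B3GNT3 (log2 changes 2.09 and -2.73, edgeR adjusted p = 0.0305 and 0.0353). Arc and Nr4a1 fell with age in astrocytes (-2.0 and -1.24, adjusted p = 0.00209 and 0.00963) and Npas4 in oligodendrocytes (-1.32, adjusted p = 0.0142). Arc was at 10.2, 12.1 and 15.9 CPM in astrocytes of young AAV-EGFP against 3.42, 2.45 and 3.37 in those of aged AAV-EGFP. In excitatory neurons it lay between 28.1 and 47.1 against 10.2 to 31.8 CPM. The upper estimate of free RNA had a median of 26.3% of UMIs in astrocytes and 44.8% in oligodendrocytes, and the part of free neuronal RNA in these calls was not tested. Of 89 clock results 7 were higher and 4 lower with age, and 2 higher with AAV-B3GNT3. With age the called shares were 13.6% of the immediate-early and 12.4% of the clock results, against 8.85% of all results, and with AAV-B3GNT3 4.55% and 2.25%, against 2.74% of all. Per3 in fibroblasts rose with age by 1.18 on the log2 scale (edgeR adjusted p = 0.0386), and Per2 in excitatory neurons was at 21.4, 24.5 and 29.9 CPM in aged AAV-EGFP and 45.2, 53.4 and 34.4 in aged AAV-B3GNT3 (0.81, adjusted p = 0.0376). The part of these in the changes of the 7 genes was not tested.

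The genes most like each of the 7 were found over the 81 class-by-library sums, among 10133 genes with at least 10 CPM on average, by Pearson's r of log2(CPM + 1), as a description. Nr3c1 was most like Phactr2 (r = 0.820), Gnaq and Heatr5a, and Nr3c2 was most like Pcca (0.795), Ranbp3l and Tmtc4. Fkbp5 was most like Slco4a1 (0.728), Wdr26 and Taf1d, and Sgk1 most like Zfp704 (0.740), Nav1 and Kazn. Tsc22d3 was most like Glul (0.883), which encodes glutamine synthetase, Selenop and Baz2b. Zbtb16 was most like Klf9 (0.729), Ciart and Arhgap21, and Errfi1 most like Gpsm1 (0.802), Ptgds and Apod. The 81 points share libraries and depth.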

How the data were processed

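Nuclei of frozen cortex and hippocampus, pooled from a hemisphere, were sorted as Hoechst-positive singlets and sequenced by 10x 3′ chemistry. The authors deposited filtered UMI counts per gene and barcode, aligned to mm10 with Cell Ranger 4.0.0 per the labels, whereas the matrix headers name 7.2.0. These matrices are before the ambient RNA and doublet correction of the study. Each of the 9 libraries is a separate mouse.

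Barcodes had to hold 200 to 5000 genes with no more than 10% of UMIs from mitochondria, and 0.8% per 1000 barcodes were removed as doublets by score. Clustering used scanpy 1.11.5 with 2000 variable genes, 15 components, 20 neighbours and resolution 0.3. A cluster was named from at least 3 markers, each in 10% of its nuclei and at 2 times the median cluster or 50% of the highest one (both for neuron subclasses). A cluster with markers of a further class stayed unnamed, as did, by a rule set after the clusters had been seen, neuron clusters in which both a glutamate and a GABA marker reached 25% of the highest cluster. Counts were summed per library and class. They were tested with edgeR 4.0.16 (R 4.3.3; quasi-likelihood, TMM, filterByExpr with a minimum count of 10, all 9 libraries in 1 fit, Benjamini-Hochberg within a class, threshold 0.05). An SE is the log2 change divided by the root of the F statistic. The free RNA share was set by markers of other classes and is an upper estimate. The profile of free RNA was taken from the sum of all barcodes of a library. CPM of group comparisons use TMM-scaled totals, and level orders use unscaled totals. On simulated counts, the test recovered 68.7% of 2-fold ageing changes in excitatory neurons and 65.7% in oligodendrocytes (16863 and 13116 genes), but 52.2% in microglia, with 12.8% of the calls there false (7219 genes), and 30.4% of 2-fold differences in ageing change between astrocytes and oligodendrocytes (11695 genes). Counts were simulated independently for each gene, with no shift shared by the genes of a library. In oligodendrocytes the ageing changes of Fkbp5, Sgk1 and Zbtb16 had SEs of 0.72, 0.68 and 0.69, so that these shares do not carry over to them. Counting error is part of each library's spread, and the smallest classes held 47 to 119 BECs and 44 to 145 pericytes per library.

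Alternatives were DESeq2 1.42.0, RLE factors, no count filter, a replicate block, each library left out, other nucleus filters, finer clusters (resolution 1), free RNA subtracted and the compared groups alone. The fit without both low libraries was chosen after seeing the data. The 7 genes and the wider lists were chosen with earlier results of these data known. From the wider lists, up to 6 called results per comparison were named by rule, those with the largest change, a mean of at least 20 counts and groups without overlap, 1 per gene. Other genes of these lists that the text names were chosen after their values were seen. Gene positions were taken from GENCODE vM21. Promoter sequences of Nr3c1 and Zbtb16 were not analysed here. A gene of the wider lists is not reported here, and the counts of its list leave it out.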

Additional observations from a re-analysis of the deposited data

Results flagged for a closer look

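The ageing change of Fkbp5, the co-chaperone of the glucocorticoid receptor, differed between classes in a test of the difference itself, with the library as a block. It was 1.19 higher on the log2 scale in astrocytes than in oligodendrocytes (SE 0.274, edgeR adjusted p = 0.0200), and 3 of the 9 fits without 1 library lost the call. The upper estimate of free RNA reached 198% of the Fkbp5 counts of astrocytes in the library where it was highest and 71.4% in oligodendrocytes. The part of free RNA in this difference was not tested.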

How the results depend on the processing

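The count of calls among the 7 genes depended on single libraries and on the count filter. For ageing it was 2 of 61 and became 7 of 61 with DESeq2, 18 of 63 without a count filter, 12 of 62 without both low libraries, and between 2 and 16 with 1 library left out. The shares of all results called were, in this order, 8.85%, 9.22%, 6.71% and 12.6%, and 3.39% to 15% with 1 library left out. The count was 16 without aged AAV-EGFP replicate 1 (15% of all results), and 4 without young AAV-EGFP replicate 1 or aged AAV-B3GNT3 replicate 2 (5.4% and 8.36%). For AAV-B3GNT3 the count was 1 of 61 and became 0 of 62 with DESeq2 (7 with an unadjusted p under 0.05), 9 of 63 without a count filter and 5 of 62 without both low libraries. It was 0 of 55 after free RNA was subtracted (3 unadjusted), 0 of 61 with only the groups compared (6 unadjusted), and between 0 and 2 with 1 library left out. The shares of all results called were, in this order, 2.74%, 4.36%, 3.56%, 5.76%, 0.194% and 1.73%, and 0.126% to 5% with 1 library left out. These are shares at the adjusted threshold, and none is set here beside the unadjusted counts. The count was 0 without aged AAV-EGFP replicate 2 or aged AAV-B3GNT3 replicate 2 (0.69% and 0.126% of all results). It was 2 without aged AAV-EGFP replicate 1 or aged AAV-B3GNT3 replicate 3 (5% and 4.42%). Calls of a difference between classes were 1 and lay between 0 and 4 with 1 library left out, the 4 arising when aged AAV-EGFP replicate 1 was left out, and the 0 for aged AAV-EGFP replicate 3 or young AAV-EGFP replicate 2. Of 56 steps between neighbouring classes 17 were called, and 11 after free RNA was subtracted. The cause of these shifts was not tested. Single results stayed on their side of the threshold in 2468 cases, passed it in 80 further cases and lost the call in 10. No called value reversed, but uncalled ageing and treatment values changed sign in 160 cases over the alternatives, 13 and 14 of them when aged AAV-EGFP replicate 1 was left out, 14 and 12 for replicate 3 of that group, and 12 and 1 for young AAV-EGFP replicate 1.

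Replicate numbers were not used as pairs in the main fits. Deviations of same-numbered libraries correlated between -0.324 and 0.18 over 54 pairs, with 7 over 0.1. As a hint from the data only, the same-numbered library was the best match in 18 of 27 pairs of aged and young AAV-EGFP and in 6 of 27 of AAV-B3GNT3 and aged AAV-EGFP. What this reflects was not tested. With the replicate block the calls were 5 for ageing, with Sgk1 in astrocytes and Tsc22d3 in both neuron classes added, and 2 for AAV-B3GNT3, with Sgk1 in astrocytes added.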
